A study of Gallus gallus with 12 samples.

Results

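The comparison described here is that of the E6.5 chicken Müllerian duct with the E5.5 duct, across all genes. It rests on 6 libraries of 12 in the series, 3 from each stage, chosen by the stage and tissue that label them. Each E5.5 library was a pool of ducts from 3 embryos and each E6.5 library a pool from 4 embryos of Hy-Line Brown eggs, left and right ducts together, and the embryos were not separated by sex. No transgene or treatment is named for any group, so the stages differ by 1 day of incubation and by the dissection of each day. What was dissected was the whole duct, which holds the surface epithelium, the mesenchyme and the inner Müllerian epithelium, and fewer cells of a type cannot be told apart from less RNA per cell. The other 6 libraries, from the E4.5 anterior mesonephros with the early duct tissue on it (E4.5-Ant) and the E4.5 posterior mesonephros without duct (E4.5-Post), entered the statistical model except for 1 with 42.12% of its counts on rRNA genes, and their levels are given for some genes. The p-values measure the spread between pools of the same tissue and stage, estimated jointly over the 4 tissues in the model. The labels of 1 E5.5 duct sample call its cells posterior kidney while its title and tissue call it duct. It was kept as duct, and nothing in the count columns shows which of the 3 libraries it is.

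The Müllerian duct is the embryonic tube that becomes the oviduct on the left side of female birds and regresses in males. Its cells are specified in the coelomic epithelium over the anterior mesonephros, invaginate there, and the tip of the tube then grows towards the cloaca along the Wolffian duct, the neighbouring duct that drains the mesonephros. WNT signals from the coelomic and Wolffian epithelia, the transcription factors PAX2 and LHX1, and BMP and FGF signals are known to be needed for its specification and growth. Behind the tip, the tube becomes wrapped in mesenchyme derived from the coelomic epithelium, which carries the receptor for anti-Müllerian hormone and from which smooth muscle and connective tissue of the oviduct later form.

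The values are reads counted on each gene, between 25395091 and 31373783 per duct library, printed as CPM (the count on a gene over all counts on genes, scaled to a total of 1000000). In each case the E5.5 values are of duct libraries 1, 2 and 3 in that order, as are the E6.5 values, and the numbers only name the pools. Of 16603 genes tested with edgeR's quasi-likelihood test, 1256 (7.56%) passed an FDR of at most 0.05 with a fold change of at least 1.5, and "rose" and "fell" are used below only of such genes. The rises numbered 683 (4.11%) and the falls 573 (3.45%). The log2 fold change of E6.5 over E5.5 is written log2FC, with its standard error after ±. Its median over all tested genes was 0.01. Falls reached further than rises: 74 genes fell and 18 rose at least 4-fold. However, 22 of the falls had at most 3 counts in every E6.5 library, while 0 of the rises had so few in every E5.5 library. In 3170 genes (19.1%) all E6.5 libraries lay above all E5.5 libraries, and in 3238 genes (19.5%) all lay below. Among the genes past the threshold, 663 of the 683 rises and 557 of the 573 falls had no overlap between the stages.

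Some features differed between libraries and touch the results. E5.5 duct library 2 stood apart from the other E5.5 libraries by the chi-square of raw counts (29.1 and 35.6 per degree of freedom, against 9.13 between the other pair and 7.55 to 8.90 between E6.5 libraries). It stood out less by Euclidean distance on log2(CPM + 1) of the tested genes. That distance was 27.38 and 28.85, against 25.24 between the other pair and 22.84 to 25.22 between E6.5 libraries. E5.5 library 2 held 1.949% of its counts on rRNA genes, against 0.34% to 1.05% in the other duct libraries. Short genes lay higher and long genes lower at E6.5: the median log2FC was 0.17 in the shortest decile of genes (152 rises and 34 falls) and -0.16 in the longest decile (47 rises and 161 falls). The chance of a call therefore moved with gene length, and its part in single results was not tested except by a fit with the trend removed, chosen after seeing the data, in which 923 of the 1256 calls were kept. The 40 W-linked genes summed to 1903, 1420 and 1473 CPM at E5.5 and to 1771, 1270 and 984 CPM at E6.5, and the sex make-up of the pools cannot be told apart from the stage. Of these 40 genes, 4 fell (10%, against 3.45% of all genes) and none rose, with 0 falls when all 12 libraries were fitted, 2 with the length trend removed, 2 without E5.5 library 1, 12 without E6.5 library 1 and 1 without E6.5 library 3. Leaving out 1 duct library gave between 912 and 1328 calls, and 669 of the 1256 genes were called in all 6 such fits.

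**Figure D1:**
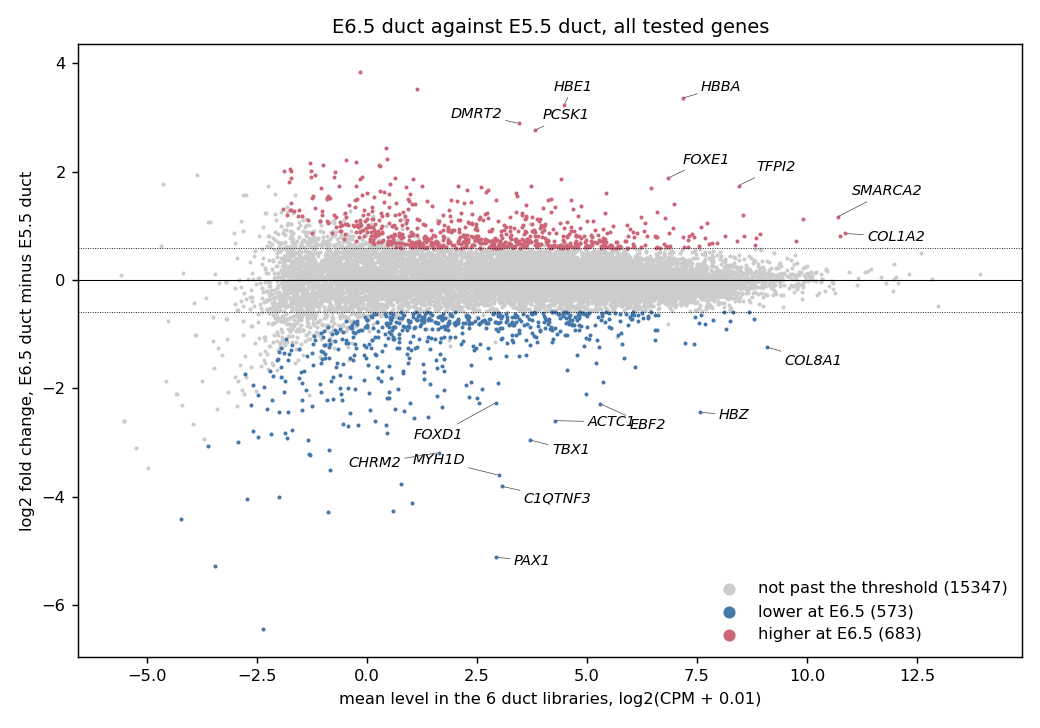
Each point is 1 of the 16603 tested genes, with its mean level in the 6 duct libraries (log2 of CPM + 0.01) on the horizontal axis and its log2 fold change of E6.5 over E5.5 duct on the vertical axis. Dotted lines mark the fold limit of 1.5, and the 683 rises and 573 falls lie outside them, with the falls reaching further from 0. At most 3 counts in every E6.5 library were found for 22 of the falls.

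Genes known to regulate duct formation were measured in every library, and most of them differed little between the stages. PAX2, which the duct epithelium needs in order to elongate, stood at 219, 265 and 247 CPM at E5.5 and at 313, 335 and 306 CPM at E6.5. All E6.5 libraries were above all E5.5 libraries, but the difference (log2FC 0.39 ± 0.08) was under the fold limit. LHX1, a homeobox gene of the same epithelium, measured 100.4, 105 and 101 CPM and then 95.4, 95.9 and 85.4 CPM (log2FC -0.14 ± 0.08). AMHR2, the receptor for anti-Müllerian hormone in the duct mesenchyme, measured 60.97, 52.99 and 58.5 CPM and then 65.3, 67.6 and 63.6 CPM (log2FC 0.19 ± 0.06). Genes of both duct compartments were thus counted at both stages. EPCAM and CDH1, general epithelial genes, had log2FC of 0.36 and 0.40.

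Of the 24 tested genes of the list of duct regulators, 4 rose (16.7%, against 4.11% of all genes) and none fell, and the median log2FC was 0.08 against 0.01 over all genes. WNT7A, a ligand that marks duct epithelium in mammals, rose 1.87-fold, from 4.49, 5.22 and 4.99 CPM to 8.44, 10.8 and 8.11 CPM (log2FC 0.90 ± 0.14, edgeR FDR = 4.0e-04). OSR1, a zinc finger gene of the intermediate mesoderm and the duct mesenchyme, measured 41.6, 45.4 and 45.2 CPM at E5.5 and 64.05, 80.2 and 72.97 CPM at E6.5 (log2FC 0.72 ± 0.09, edgeR FDR = 1.3e-04). DMRT1, a Z-linked gene needed for testis formation in the chicken, was also among the 4 and is described below with its neighbours. The last was TCF21, a bHLH gene of visceral mesoderm (log2FC 0.61), whose call was lost without E5.5 library 2 (0.51) or E6.5 library 2 (0.54) and with the gene length trend removed (0.41), values in brackets being log2FC. Among the 20 members that did not pass, EMX2 had a log2FC of 0.27, WNT4 of 0.24, WT1 of 0.07, CTNNB1 of -0.03 and the Wolffian ligand WNT9B of -0.32. GATA3, DACH1, DACH2, ACVR1, RARA, RARB and VANGL2 lay between -0.06 and 0.20, and BMPR1A, BMPR2 and DLG1 between -0.27 and -0.15.

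The largest rises among genes with a mean of at least 5 CPM were led by 2 globin genes, described further on, and by 2 Z-linked genes. PCSK1, a convertase that cuts prohormones into active peptides, stood at 3.67, 3.47 and 3.77 CPM at E5.5 and at 25.6, 26.5 and 21.6 CPM at E6.5, a 6.78-fold rise (log2FC 2.76 ± 0.10, edgeR FDR = 3.4e-09). Its libraries were nearly level within each stage, and the gap between the nearest libraries of the stages was the widest on the log2 scale among the rises with a mean of at least 5 CPM. The mean at E4.5 was 8.31 CPM in E4.5-Ant and 0.878 CPM in E4.5-Post. FOXE1, a forkhead factor best known from the thyroid, rose from 42.1, 46.7 and 59.4 CPM to 175, 193 and 176 CPM (log2FC 1.88 ± 0.09, edgeR FDR = 5.4e-08). It had stood at a mean of 8.403 CPM in E4.5-Ant. TFPI2, a secreted inhibitor of serine proteases, rose 3.35-fold, from 144, 148 and 193 CPM to 503, 563 and 547 CPM (log2FC 1.74 ± 0.10, edgeR FDR = 4.7e-07). The lowest E6.5 library was far above the highest E5.5 library for this gene.

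Most other rises of this rank belong to secreted factors. SLC17A8, a vesicular glutamate transporter, measured 7.33, 7.87 and 12.5 CPM and then 36.8, 36.6 and 27.3 CPM (log2FC 1.87 ± 0.16, edgeR FDR = 6.8e-06). MGP, the matrix Gla protein that inhibits calcification, measured 5.39, 4.46 and 8.65 CPM and then 16.3, 24.6 and 19.9 CPM (log2FC 1.73 ± 0.19, edgeR FDR = 4.6e-05). OSTN, a secreted peptide of muscle and bone also called musclin, measured 1.498, 2.15 and 4.99 CPM and then 9.32, 9.88 and 8.51 CPM (log2FC 1.71 ± 0.29, edgeR FDR = 7.8e-04). In each of the 3 genes, E5.5 library 3 was the highest of its stage, and without it the log2FC of OSTN was 2.33. AVDL, a Z-linked avidin-like gene, rose from 39.6, 35.9 and 48.7 CPM to 78.4, 147 and 176 CPM (log2FC 1.70 ± 0.24, edgeR FDR = 2.3e-04), with E6.5 library 1 well below the other E6.5 libraries. Avidin genes lie in a cluster of near-identical copies, so reads of AVDL may be shared with the other copies. DKK1, an antagonist of WNT co-receptors, is given with the WNT genes and LOC112529963 with the lncRNAs. Outside the rule for the largest changes, FSHR, the receptor for follicle-stimulating hormone, rose from 2.74, 3.01 and 3.95 CPM to 8.85, 10.4 and 10.3 CPM (log2FC 1.61 ± 0.16, edgeR FDR = 1.7e-05), and was singled out after its values were seen.

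**Figure D2:**
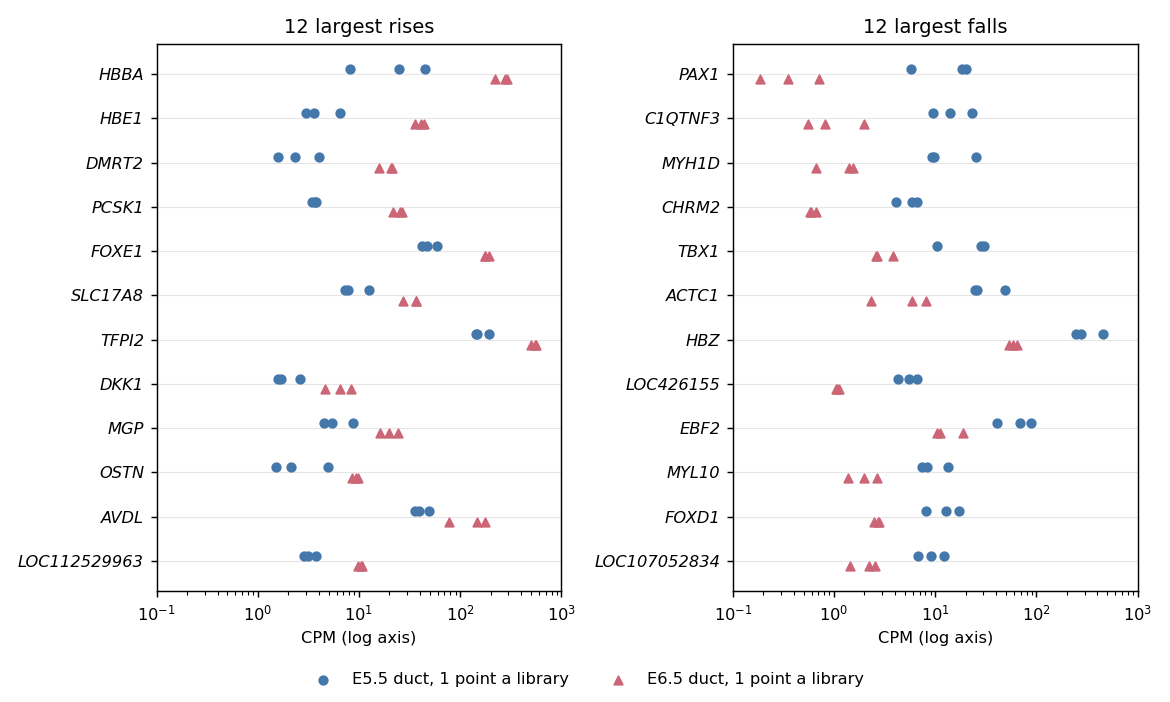
CPM (log axis) in each of the 3 E5.5 (circles) and 3 E6.5 (triangles) duct libraries, for the 12 genes with the largest rises and the 12 with the largest falls among genes with a mean of at least 5 CPM and no overlap between stages. On this axis E5.5 levels are more spread than E6.5 levels for several falls, as for TBX1, but not for PAX1. In both of these genes E5.5 library 3 is the lowest of its stage.

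Among the 12 largest rises, 4 are Z-linked (FOXE1, PCSK1, DMRT2 and AVDL), as are 3 of the 12 largest falls (C1QTNF3, LOC426155 and FOXD1), while 4.57% of tested genes lie on Z. Over all 759 tested Z-linked genes, 42 rose (5.53%) and 37 fell (4.87%), with a median log2FC of -0.04. A stretch of Z, from 25715115 to 26572231 in GRCg6a, holds DOCK8, KANK1, DMRT1, DMRT3, DMRT2, SMARCA2 and VLDLR in that order.

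DMRT2, a DM-domain factor that patterns the somite in other species, lies on Z from 26043284 to 26048443 and rose from 1.59, 2.31 and 3.98 CPM to 15.9, 20.6 and 21.3 CPM, or 7.41-fold (log2FC 2.89 ± 0.24, edgeR FDR = 5.1e-06). DMRT3 rose from 6.57, 6.15 and 10.7 CPM to 16.8, 13.4 and 15.8 CPM (log2FC 0.99 ± 0.18, edgeR FDR = 0.0012) and DMRT1 from 8.13, 9.65 and 12.8 CPM to 15.3, 20.5 and 17.96 CPM (log2FC 0.82 ± 0.15, edgeR FDR = 0.0013). In both DMRT2 and DMRT3, E5.5 library 3 was nearest to the E6.5 level. SMARCA2, the ATPase of the BAF chromatin remodelling complex, stood at 854, 957 and 1267 CPM at E5.5 and 2188, 2193 and 2482 CPM at E6.5 (log2FC 1.16 ± 0.11, edgeR FDR = 1.1e-05).

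The genes on either side of this run did not follow it: KANK1 measured 179.7, 176 and 183 CPM and then 179.6, 179 and 179 CPM (log2FC 0.00 ± 0.04), and DOCK8 and VLDLR had log2FC of 0.24 ± 0.12 and 0.11 ± 0.09. Of the 7 tested genes of this list 4 rose and none fell, with a median log2FC of 0.82. The share that rose was 57.1%, against 4.11% of all genes and 5.53% of Z-linked genes. The list was chosen with earlier results of these data known, so its counts are not independent evidence. LOC107052298, an lncRNA between DMRT2 and SMARCA2 on the same strand, rose from 0.255, 0.331 and 0.682 CPM to 1.62, 2.48 and 2.72 CPM (log2FC 2.44 ± 0.34, edgeR FDR = 2.3e-04). It starts 2955 bases beyond the annotated end of DMRT2, and whether its reads come from a longer DMRT2 transcript was not tested. A Z-linked gene can also move with the share of male embryos in a pool, and the part of that share in these values was not tested. The W-linked sums above belong beside them, as does the median log2FC of -0.04 over all 759 tested Z-linked genes.

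The study singled out 27 genes on these samples, so their direction is not independent evidence. Of these, 13 rose (48.15%, against 4.11% of all genes) and none fell, and their median log2FC was 0.56 against 0.01 over all genes. Besides SMARCA2, FOXE1, OSR1 and genes named below, RUNX1, a runt-domain factor, rose from 44.1, 55.2 and 57.8 CPM to 108, 109 and 109 CPM (log2FC 1.06 ± 0.09, edgeR FDR = 6.4e-06). HTRA3, a secreted serine protease, rose from 106, 119.6 and 165 CPM to 268, 243 and 256 CPM (log2FC 0.98 ± 0.11, edgeR FDR = 5.5e-05). TGFBI, a matrix protein induced by TGF-beta, rose from 117, 125 and 107 CPM to 202, 200.2 and 212 CPM (log2FC 0.82 ± 0.08, edgeR FDR = 1.7e-05). The stages did not overlap in these genes. SYNPO2, LIMCH1 and ASTN2 passed narrowly, with log2FC of 0.66, 0.59 and 0.64, and their calls were lost, SYNPO2 without E5.5 library 1 (0.58), ASTN2 without E5.5 library 1 (0.57) and LIMCH1 without E5.5 library 1 (0.55) or E6.5 library 1 (0.55) and with all 12 libraries fitted (0.58).

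Among the 14 of these genes that did not pass, POSTN, a matricellular protein of the duct mesenchyme, measured 666, 697 and 796 CPM and then 996, 944 and 1013 CPM (log2FC 0.46 ± 0.07), with no overlap between the stages. PRICKLE1 (log2FC 0.52), LAPTM4B (0.56), ADRA1D (0.56), EGFLAM (0.50), FHL2 (0.48), CALCR (0.47) and CLIP2 (0.29) also lay above 0 and under the fold limit. DENND2A and TSHZ3 had log2FC of 0.17 and 0.16. LOXL2, a lysyl oxidase (-0.11), BMP3 (-0.38), SPOCK1 (-0.02) and ADGRD1 (-0.03) lay below 0.

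Several WNT ligands were higher at E6.5, and so were genes that antagonise or report WNT signalling. WNT proteins bind Frizzled receptors, with or without stabilising beta-catenin, and the secreted antagonists hold them back. Of the 15 tested ligands, 5 rose (33.3%) and 1 fell, with a median log2FC of 0.24. WNT6 rose from 16.96, 14.5 and 20.2 CPM to 32.1, 35.2 and 29.5 CPM (log2FC 0.91 ± 0.12, edgeR FDR = 1.4e-04) and WNT16 from 12.5, 12.6 and 16.9 CPM to 25.4, 27.8 and 23.2 CPM (log2FC 0.87 ± 0.14, edgeR FDR = 5.8e-04). The stages did not overlap for either ligand. WNT7B, a close relative of WNT7A, rose 2.65-fold, from 1.18, 1.06 and 1.26 CPM to 3.58, 3.22 and 2.402 CPM (log2FC 1.40 ± 0.20, edgeR FDR = 2.7e-04), and WNT2 rose at a low level (log2FC 0.95).

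The ligand that fell was WNT9A, from 7.11, 9.65 and 6.21 CPM to 3.88, 4.55 and 5.16 CPM (log2FC -0.76 ± 0.18, edgeR FDR = 0.0061), and its call was lost without E5.5 library 2 (-0.53). WNT11, a ligand of the Wolffian duct tip in the mouse, measured 44.1, 40.7 and 44.9 CPM and then 31.4, 25.9 and 29.7 CPM, with no overlap and a log2FC of -0.57 ± 0.08 just under the fold limit. Of the remaining ligands, WNT10A (0.83), WNT2B (0.46), WNT1 (0.08), WNT5B (0.06), WNT5A (0.04) and WNT11B (-0.48) did not pass.

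Of the 12 secreted antagonists, 4 rose (33.3%, against 4.11% of all genes) and none fell, while their median log2FC was -0.03. DKK1 rose from 1.59, 1.69 and 2.62 CPM to 4.66, 8.25 and 6.54 CPM (log2FC 1.73 ± 0.29, edgeR FDR = 7.9e-04). APCDD1, a membrane-bound inhibitor that is also a target of the pathway, measured 309, 295 and 417 CPM at E5.5 and 571, 592 and 566 CPM at E6.5 (log2FC 0.77 ± 0.10, edgeR FDR = 1.0e-04). WIF1, which binds WNT proteins directly, rose from 6.41, 6.58 and 7.72 CPM to 13.6, 13.9 and 12.3 CPM (log2FC 0.95 ± 0.15, edgeR FDR = 4.1e-04). The E6.5 libraries agreed closely for APCDD1 and WIF1 and less so for DKK1. The call of SFRP5 (log2FC 0.76, at a low level) was lost without E5.5 library 2 (0.62), E5.5 library 3 (0.67), E6.5 library 1 (0.86), E6.5 library 2 (0.65) or E6.5 library 3 (0.76), by limma voom (0.78), by DESeq2 (0.76), with all 12 libraries fitted (0.75), with the gene length trend removed (0.56) and under other scalings or filters.

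Of 20 genes known to respond to the pathway, 6 rose (30.0%) and none fell (median log2FC 0.15). WISP1, a matricellular protein, rose 3.14-fold, from 2.04, 1.79 and 3.23 CPM to 7.803, 7.95 and 6.18 CPM (log2FC 1.65 ± 0.19, edgeR FDR = 5.8e-05). SP5, a transcription factor, rose from 2.58, 2.02 and 2.69 CPM to 3.78, 4.96 and 5.36 CPM (log2FC 0.95 ± 0.19, edgeR FDR = 0.0026). TCF7, which binds DNA for beta-catenin, rose from 6.41, 6.88 and 8.58 CPM to 13.7, 11.8 and 10.9 CPM (log2FC 0.75 ± 0.18, edgeR FDR = 0.0080). DKK1 and LGR5 are members of this list as well. Its sixth member, LEF1, measured 45.7, 45.95 and 53.2 CPM and then 72.3, 77.6 and 66.7 CPM, with a log2FC of 0.59 at the fold limit, and its call was lost without E5.5 library 1 (0.54), E5.5 library 2 (0.57) or E6.5 library 2 (0.54), by DESeq2 (0.58), with all 12 libraries fitted (0.58) and under other scalings or filters.

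Of 25 WNT receptors and R-spondins, 1 rose and 1 fell (4% each), near the shares of all genes (4.11% and 3.45%). LGR5, a receptor for R-spondins, rose from 137, 148 and 172 CPM to 272, 260.5 and 245 CPM (log2FC 0.78 ± 0.08, edgeR FDR = 1.7e-05). RSPO2, one of the R-spondins that LGR5 binds, fell from 4.69, 5.75 and 3.19 CPM to 2.57, 1.89 and 3.11 CPM (log2FC -0.85 ± 0.24, edgeR FDR = 0.017), and its call was lost without E5.5 library 2 (-0.62) or E6.5 library 2 (-0.68) and with all 12 libraries fitted (-0.86).

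**Figure D3:**
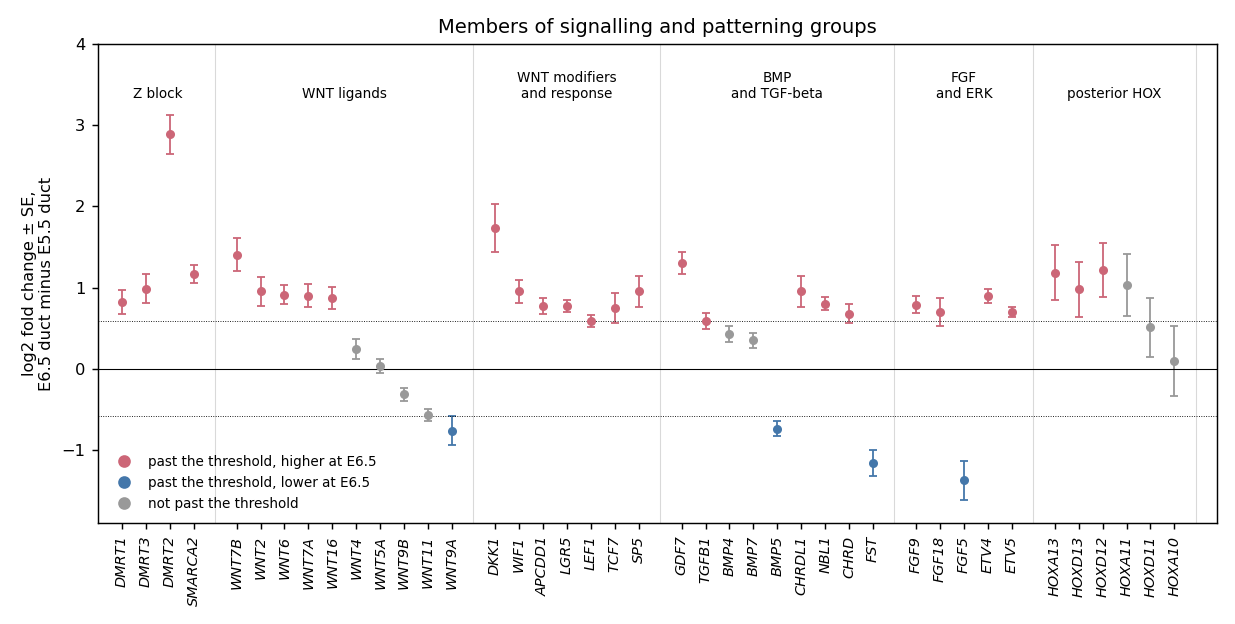
Log2 fold change of E6.5 over E5.5 duct with its standard error, for members of 6 signalling and patterning groups, coloured by whether they passed the threshold, with dotted lines at the fold limit of 1.5. Of the genes drawn, DMRT2 stands highest at 2.89 and FGF5 lowest at -1.37.

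The BMP and TGF-beta family held both rises and falls, each in few members. Its ligands bind serine/threonine kinase receptors, and the antagonists bind the ligands outside the cell. Of 18 tested ligands, 2 rose and 2 fell (11.1% each, against 4.11% and 3.45% of all genes), with a median log2FC of 0.04. GDF7, a BMP known from the roof plate and tendons, rose 2.47-fold, from 11.7, 15.04 and 18.1 CPM to 39.9, 37.4 and 32.96 CPM (log2FC 1.31 ± 0.14, edgeR FDR = 2.5e-05). BMP5 fell from 31.5, 32.2 and 31.8 CPM to 19.2, 17.1 and 20.7 CPM (log2FC -0.74 ± 0.09, edgeR FDR = 9.5e-05), with libraries almost level within each stage. MSTN, or myostatin, which limits muscle growth, fell from 1.66, 0.826 and 0.467 CPM to 0.203, 0.111 and 0 CPM, beside the muscle genes described below. TGFB1 rose by a log2FC of 0.59 at the fold limit, and its call was lost without E5.5 library 2 (0.55) or E6.5 library 2 (0.49), by limma voom (0.58), by DESeq2 (0.58), with all 12 libraries fitted (0.58), with the gene length trend removed (0.48) and under other scalings or filters.

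BMP4 measured 19.2, 19.8 and 24.2 CPM and then 29.3, 27.6 and 27.6 CPM (log2FC 0.43 ± 0.09), and BMP7 had a log2FC of 0.35 ± 0.09. Neither passed the fold limit. BMP2, BMP6, TGFB2, TGFB3, INHBB, GDF3 and GDF9 lay between -0.11 and 0.23, and GDF6 (0.66), GDF11 (0.50), INHBA (-0.39) and GDF10 (-0.60) did not pass either. Of 13 antagonists, 3 rose and 1 fell (23.1% and 7.69%, against 4.11% and 3.45% of all genes), with a median log2FC of -0.14. NBL1, a DAN-family antagonist, rose from 70.5, 62.9 and 77.5 CPM to 119.9, 136 and 110.1 CPM (log2FC 0.80 ± 0.08, edgeR FDR = 1.4e-05), CHRDL1, a chordin relative, by a log2FC of 0.95 ± 0.19 and CHRD, chordin itself, by 0.68 ± 0.12. FST, follistatin, which binds activins and myostatin, fell from 12.02, 15.6 and 10.2 CPM to 5.17, 5.25 and 6.58 CPM (log2FC -1.16 ± 0.16, edgeR FDR = 2.0e-04). Of 14 BMP response genes, 2 rose (14.3%) and none fell. These were DLX5 (log2FC 1.18 ± 0.25, at a low level) and ID1 (log2FC 0.64), and the call of ID1 was lost without E5.5 library 2 (0.53) or E6.5 library 2 (0.51) and with the gene length trend removed (0.38).

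FGF ligands signal through receptor tyrosine kinases to ERK, whose activity induces ETV4, ETV5 and the DUSP phosphatases. Of 21 FGF ligands and receptors, 2 rose and 2 fell (9.52% each, against 4.11% and 3.45% of all genes). Of 20 ERK feedback and target genes, 4 rose (20%) and none fell. The medians of the lists were -0.13 and 0.28. FGF9, a ligand of mesothelia and gonads, rose from 10.6, 11.5 and 12.5 CPM to 18.4, 21.6 and 19.5 CPM (log2FC 0.79 ± 0.10, edgeR FDR = 1.5e-04). ETV4 rose from 45.2, 41.7 and 52.2 CPM to 84.1, 89.8 and 83.3 CPM (log2FC 0.89 ± 0.08, edgeR FDR = 9.4e-06) and ETV5 from 39.7, 40.3 and 37.3 CPM to 62.6, 65.03 and 61.9 CPM (log2FC 0.70 ± 0.06, edgeR FDR = 9.4e-06). The stages did not overlap for any of the 3. DUSP4 and EGR1 rose (log2FC 0.67 and 0.72), and lost their calls with the gene length trend removed (log2FC 0.52 and 0.55). FGF18 rose (log2FC 0.70) but its call was lost without E5.5 library 2 (0.57). FGF5 fell from 1.85, 1.59 and 1.51 CPM to 0.777, 0.555 and 0.551 CPM (log2FC -1.37 ± 0.24, edgeR FDR = 0.0010), and FGFRL1, a receptor without a kinase, fell (log2FC -0.64) but its call was lost without E5.5 library 2 (-0.42), with all 12 libraries fitted (-0.65) and with the gene length trend removed (-0.46).

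Other pathways changed in few members, beside 4.11% rises and 3.45% falls over all genes. The shares that rose and fell were 10% and 5% of retinoic acid pathway genes and 5.26% and 10.5% of Notch genes. They were 6.25% and 0% of Hedgehog genes and 4.35% and 8.7% of nuclear receptor genes. In the retinoic acid pathway (20 tested), ALDH1A3, an enzyme that makes retinoic acid, rose from 68.7, 61.95 and 74.7 CPM to 151, 148 and 151 CPM (log2FC 1.14 ± 0.07, edgeR FDR = 6.6e-07). CRABP1, which carries retinoic acid in the cytoplasm, fell from 67.9, 55.2 and 39.4 CPM to 21.8, 27.6 and 19.2 CPM (log2FC -1.24 ± 0.17, edgeR FDR = 2.0e-04). ALDH1A3 was nearly equal in the 3 libraries of E6.5. CYP26A1, which degrades retinoic acid, rose (log2FC 0.71) but its call was lost without E5.5 library 1 (0.54) and with the gene length trend removed (0.54). In the Notch pathway (19 tested), HES1, a target gene, rose from 32.8, 30.1 and 34.5 CPM to 55.6, 66.03 and 56.9 CPM (log2FC 0.88 ± 0.09, edgeR FDR = 2.8e-05). JAG2, a ligand, and MFNG, a modifier of the receptors, fell (log2FC -0.67 and -0.69), JAG2 losing its call with the length trend removed (log2FC -0.56) and MFNG without E6.5 library 2 (log2FC -0.58). Of 16 Hedgehog genes only the ligand IHH rose, from 0.542, 0.4298 and 0.718 CPM to 1.22, 1.37 and 1.3 CPM. NR0B1, or DAX1, an orphan receptor of the gonad and adrenal, rose from 5.42, 5.98 and 9.798 CPM to 16.6, 16.1 and 15.4 CPM (log2FC 1.20 ± 0.19, edgeR FDR = 4.3e-04). It was the only riser of 23 nuclear receptor genes, while RORA and RORB fell (log2FC -0.69 and -1.09). The call of RORA was lost without E5.5 library 2 (-0.50), with all 12 libraries fitted (-0.70) and with the gene length trend removed (-0.44) and that of RORB with all 12 libraries fitted (-1.10).

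Guidance genes steer axons and also migrating cells. Of the 42 tested, 3 rose and 2 fell (7.14% and 4.76%), near the shares of all genes (4.11% and 3.45%). Their median log2FC was -0.07, with 18 above 0 and 24 below. UNC5D, a netrin receptor, rose from 26.2, 25.9 and 23.9 CPM to 63.9, 61.8 and 53.4 CPM (log2FC 1.24 ± 0.08, edgeR FDR = 5.5e-07). NTN1, netrin-1, the ligand of that receptor family, rose from 14.2, 12.8 and 14.1 CPM to 27.6, 29.04 and 27.8 CPM (log2FC 1.04 ± 0.11, edgeR FDR = 3.0e-05). SLIT1, a repellent read by ROBO receptors, rose from 78.1, 89.4 and 85.3 CPM to 152, 175 and 164 CPM (log2FC 0.96 ± 0.08, edgeR FDR = 6.3e-06). In all 3, no library of a stage came near the other stage. PLXNA4, a semaphorin receptor, fell from 7.24, 15.97 and 6.35 CPM to 2.36, 2.07 and 2.95 CPM (log2FC -2.01 ± 0.32, edgeR FDR = 5.2e-04), with E5.5 library 2 above the others. Its call was lost with all 12 libraries fitted (-2.02), and that of PLXNA2 (log2FC -0.67) without E5.5 library 2 (-0.52) and with the gene length trend removed (-0.43). CXCR4, the receptor for the chemokine CXCL12, rose from 17.3, 13.4 and 20.6 CPM to 38.98, 37.5 and 39.3 CPM (log2FC 1.18 ± 0.10, edgeR FDR = 7.1e-06). PDGFA rose (log2FC 0.67 ± 0.09), and RET, the receptor for GDNF in the Wolffian duct, fell from 37.2, 36.2 and 27.2 CPM to 18.5, 17.4 and 20.9 CPM (log2FC -0.82 ± 0.12, edgeR FDR = 3.0e-04).

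Posterior HOX genes, which mark the caudal body, were higher in part. Of 13 tested members of paralogue groups 9 to 13, 3 rose (23.1%, against 4.11% of all genes) and none fell (median log2FC 0.24). Of 19 anterior members only HOXC5 changed (5.26%), a fall from 10.9, 10.02 and 7.57 CPM to 5.303, 5.99 and 5.39 CPM (log2FC -0.77 ± 0.16, edgeR FDR = 0.0035). HOXD12 measured 2.39, 3.44 and 5.96 CPM at E5.5 and 10.8, 9.1 and 7.17 CPM at E6.5 (log2FC 1.22 ± 0.33, edgeR FDR = 0.015). HOXA13 measured 0.701, 0.694 and 2.01 CPM and then 3.04, 2.48 and 2.05 CPM (log2FC 1.18 ± 0.34, edgeR FDR = 0.019), and HOXD13 2.14, 2.94 and 6.32 CPM and then 9.42, 6.77 and 5.87 CPM (log2FC 0.98 ± 0.34, edgeR FDR = 0.045). For each of the 3 genes E5.5 library 3 lay at or near the E6.5 level, and HOXD13 overlapped between the stages. HOXA11 had a log2FC of 1.03 ± 0.39 and did not pass (edgeR FDR = 0.061), and HOXD11, HOXA10, HOXD10 and HOXC11 had log2FC of 0.51, 0.09, 0.06 and 0.36. The group 9 genes HOXA9, HOXB9, HOXC9 and HOXD9, and HOXC10, lay between -0.22 and 0.24.

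These 3 calls did not hold when single libraries were left out. HOXD12 lost its call without E5.5 library 1 (0.95), E6.5 library 1 (1.07) or E6.5 library 2 (1.21), by DESeq2 (1.20) and with all 12 libraries fitted (1.20). HOXA13 lost its call without E5.5 library 1 (0.92), E5.5 library 2 (0.95), E6.5 library 1 (1.03) or E6.5 library 2 (1.20) and with the gene length trend removed (0.97), while its log2FC was 1.84 without E5.5 library 3, and HOXD13 without E5.5 library 1 (0.68), E5.5 library 2 (0.85), E6.5 library 1 (0.76) or E6.5 library 2 (1.04), by DESeq2 (0.96), with all 12 libraries fitted (0.96) and with the gene length trend removed (0.80). The summed CPM of cloaca and tail bud markers was 41.0, 38.7 and 64.9 at E5.5 and 65.5, 55.9 and 52.0 at E6.5. Among the 11 tested markers 3 rose (27.3%, against 4.11% of all genes), and none without E5.5 library 2. HOXA13 and HOXD13 are themselves among the 3, so this list is not a separate measure from those genes. How far the caudal end of the duct was included in each pool was not tested.

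Matrix genes changed in both directions, with collagen I up and 4 of 28 basement membrane genes down. Of 40 collagen genes 9 rose and 6 fell (22.5% and 15%, against 4.11% and 3.45% of all genes). Of 33 fibrillar matrix and matricellular genes 6 rose and 2 fell (18.2% and 6.06%). Of 28 basement membrane genes 1 rose and 4 fell (3.57% and 14.3%), but as a list they did not shift, with 13 above 0, 15 below and a median log2FC of -0.005. Without E5.5 library 1, 5 collagen genes rose. Collagen I is a trimer of COL1A1 and COL1A2 chains. COL1A1 rose from 508, 817 and 479 CPM to 1284, 1409 and 1247 CPM (log2FC 1.12 ± 0.16, edgeR FDR = 2.5e-04) and COL1A2 from 1233, 1527 and 1235 CPM to 2379.9, 2303 and 2551 CPM (log2FC 0.86 ± 0.10, edgeR FDR = 4.7e-05). For both, E5.5 library 2 was the highest of its stage and still lay well below E6.5. COL16A1 and COL15A1, which associate with other fibrils and with basement membranes, rose by log2FC of 0.87 ± 0.07 and 0.96 ± 0.14. PCOLCE, which enhances the trimming of procollagen, rose (log2FC 0.81 ± 0.09), as did ELN, elastin, from 50.6, 51.4 and 48.8 CPM to 87.5, 97.03 and 90.2 CPM (log2FC 0.87 ± 0.06, edgeR FDR = 2.5e-06), and EMILIN1, which binds elastic fibres (log2FC 0.81 ± 0.14).

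Among the falls, COL8A1, a short-chain collagen that forms sheets, went from 861, 824 and 595 CPM to 299, 320.3 and 348 CPM (log2FC -1.23 ± 0.12, edgeR FDR = 1.3e-05). TNC, tenascin-C, fell from 290.5, 322 and 257 CPM to 188, 155 and 177 CPM (log2FC -0.74 ± 0.09, edgeR FDR = 9.9e-05), and COL12A1 fell (log2FC -0.75) but its call was lost without E5.5 library 2 (-0.55). Of the basement membrane genes, LAMA3, a laminin chain of epithelia, fell from 61.4, 64.1 and 50.7 CPM to 36.5, 30.4 and 29.2 CPM (log2FC -0.87 ± 0.11, edgeR FDR = 8.1e-05). COL4A3 and COL4A4, paired collagen IV chains known from the glomerulus, fell by log2FC of -0.81 ± 0.14 and -0.79 ± 0.17, beside the nephron genes described below. FREM2 fell (log2FC -0.59) but its call was lost without E5.5 library 2 (-0.46) or E6.5 library 2 (-0.52), by limma voom (-0.58) and with the gene length trend removed (-0.43). LAMB2, another laminin chain, rose from 27.98, 31.3 and 29.8 CPM to 43.7, 51.97 and 50.8 CPM (log2FC 0.72 ± 0.09, edgeR FDR = 9.5e-05). Of 38 matrix enzymes and inhibitors, 5 rose and 2 fell (13.2% and 5.26%). The rises included MMP11, MMP23B and LOXL4 (log2FC 0.81, 0.97 and 0.91). The falls were of TIMP4, an inhibitor of metalloproteases, from 19.6, 21.1 and 12.5 CPM to 6.86, 5.47 and 8.11 CPM (log2FC -1.38 ± 0.19, edgeR FDR = 1.7e-04), and MMP16 (log2FC -0.71), whose call was lost with all 12 libraries fitted (-0.72) and with the gene length trend removed (-0.53).

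Few epithelial genes passed the threshold, though 28 of the 37 tested had a log2FC above 0 and 9 below, with a median of 0.21. CLDN3, a tight junction claudin, rose from 60.05, 48.3 and 70.6 CPM to 97.7, 111 and 104 CPM (log2FC 0.82 ± 0.09, edgeR FDR = 4.3e-05) and EHF, an ETS factor of epithelia, rose from 0.892, 0.727 and 1.4 CPM to 3.28, 2.18 and 2.99 CPM (log2FC 1.5 ± 0.29, edgeR FDR = 0.0018), and none of the list fell. Outside that list, CDH2, or N-cadherin, rose from 329.6, 372 and 351 CPM to 573, 531 and 541 CPM (log2FC 0.65 ± 0.07, edgeR FDR = 5.8e-05). BNC1, a zinc finger gene of mesothelia, fell (log2FC -0.65) but not with the length trend removed (log2FC -0.52), and BNC2 (log2FC -0.61) lost its call without E5.5 library 2 (-0.42), E6.5 library 1 (-0.58) or E6.5 library 2 (-0.57), by DESeq2 (-0.62), with all 12 libraries fitted (-0.62) and with the gene length trend removed (-0.36). Of 25 smooth muscle genes, 5 rose (20%, against 4.11% of all genes) and none fell. Without E5.5 library 1, 3 rose. MYH11, smooth muscle myosin, rose from 2.104, 2.02 and 2.73 CPM to 6.08, 5.18 and 4.17 CPM (log2FC 1.18 ± 0.16, edgeR FDR = 2.0e-04), and ACTG2, enteric smooth muscle actin, from 8.57, 10.02 and 12.6 CPM to 21.8, 23.01 and 15.7 CPM (log2FC 0.96 ± 0.17, edgeR FDR = 0.0010). CSRP1 rose (log2FC 0.73) with SYNPO2, and CSRP2 rose (log2FC 0.62) but its call was lost without E5.5 library 1 (0.52), E5.5 library 2 (0.49) or E6.5 library 2 (0.54) and with the gene length trend removed (0.52). ACTA2, the general smooth muscle actin, had a log2FC of -0.40 ± 0.10, with all E6.5 libraries below all E5.5 libraries.

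Few genes of cell division passed the threshold. None of 50 mitosis genes passed in either direction by edgeR, limma voom or DESeq2 (median log2FC 0.03). An unadjusted edgeR p under 0.05 was found for 14 of them. An edgeR FDR of at most 0.05 at any fold was found for 7, against 4659 of all 16603 tested genes. Of 44 DNA replication genes 1 rose (2.27%, against 4.11% of all genes), CDC6, a licensing factor, from 8.54, 6.58 and 8.25 CPM to 11.8, 14.8 and 12.6 CPM (log2FC 0.76 ± 0.15, edgeR FDR = 0.0019). The log2FC of 37 of the 44 lay above 0 and of 7 below, with a median of 0.13. None of 72 cytoplasmic ribosomal protein genes passed by any of the 3 tools either (median 0.12). Among them, 20 had an unadjusted edgeR p under 0.05 and 12 an edgeR FDR of at most 0.05 at any fold. Of 13 mitochondrially encoded protein genes ND3 rose (log2FC 0.81 ± 0.06), and without E5.5 library 2, whose mitochondrial counts were the highest of the ducts, 4 rose and the median was 0.49.

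The largest falls among genes with a mean of at least 5 CPM included transcription factors, muscle genes, a receptor and a globin. PAX1, a paired-box factor of the sclerotome and of pharyngeal pouches, lies on chromosome 3 and went from 20.1, 18.6 and 5.71 CPM to 0.709, 0.185 and 0.354 CPM, or 34.6-fold lower (log2FC -5.11 ± 0.55, edgeR FDR = 3.7e-05). TBX1, a T-box factor of pharyngeal and head mesoderm, fell from 30.6, 28.5 and 10.5 CPM to 2.63, 3.81 and 2.599 CPM (log2FC -2.95 ± 0.34, edgeR FDR = 5.8e-05). PAX1 and TBX1 had E5.5 library 3 lowest of its stage, and without E6.5 library 1 the log2FC of PAX1 was -5.77. FOXD1, a forkhead factor of renal stroma, fell from 17.1, 12.9 and 8.11 CPM to 2.47, 2.7 and 2.796 CPM (log2FC -2.26 ± 0.22, edgeR FDR = 1.5e-05). LOC426155, also on Z, fell from 6.598, 5.45 and 4.27 CPM to 1.11, 1.04 and 1.06 CPM (log2FC -2.34 ± 0.20, edgeR FDR = 6.0e-06). TBX1 and FOXD1 had been highest in E4.5-Ant, with means of 81.5 and 38.7 CPM there.

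EBF2, an early B cell factor that also acts in adipose and mesenchymal cells, fell from 68.2, 88.2 and 40.8 CPM to 18.9, 10.4 and 11.1 CPM (log2FC -2.29 ± 0.26, edgeR FDR = 5.2e-05), and its relative EBF3 from 52.7, 74.02 and 38.7 CPM to 23.2, 16.2 and 18 CPM (log2FC -1.53 ± 0.20, edgeR FDR = 1.4e-04). In both, E5.5 library 2 was the highest and E5.5 library 3 the lowest of the stage. PRDM6, a Z-linked factor of smooth muscle, fell from 8.0, 9.65 and 5.38 CPM to 2.905, 2.63 and 2.21 CPM (log2FC -1.57 ± 0.19, edgeR FDR = 9.3e-05), and PITX1 and LMX1B, both limb and mesoderm factors, fell by log2FC of -1.93 ± 0.46 and -1.68 ± 0.27. CHRM2, the muscarinic receptor of heart and smooth muscle, fell 9.09-fold, from 5.96, 6.64 and 4.09 CPM to 0.574, 0.666 and 0.591 CPM (log2FC -3.18 ± 0.23, edgeR FDR = 1.8e-06), after a mean of 32.3 CPM in E4.5-Ant. The protein coding gene LOC107052834 on chromosome 1 fell from 12.2, 8.99 and 6.75 CPM to 1.45, 2.22 and 2.56 CPM (log2FC -2.18 ± 0.24, edgeR FDR = 4.0e-05).

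Over the transcription factor families, 43 of 373 tested genes rose and 35 fell (11.5% and 9.38%, against 4.11% and 3.45% of all genes). Rises beyond those named above included ASCL4, a bHLH gene, from 0.0319, 0.0661 and 0.251 CPM to 1.82, 1.26 and 1.89 CPM, and UNCX, a homeobox gene of the posterior sclerotome and kidney, from 8.89, 8.93 and 9.87 CPM to 22.3, 26.1 and 20.8 CPM (log2FC 1.33 ± 0.18, edgeR FDR = 1.8e-04). The ETS factor ELF5 (log2FC 1.61 ± 0.39) and the LIM homeobox gene ISL2 (log2FC 1.56 ± 0.39) rose from E5.5 levels that did not exceed 1.26 CPM in any library. Without E5.5 library 3, the highest of its stage for both, their log2FC was 2.44 and 2.37. NFIX and GATA6 rose by log2FC of 1.13 ± 0.09 and 0.72 ± 0.13, and OSR2, the paralogue of OSR1, by 0.84 ± 0.12. Falls included PAX9, the paralogue of PAX1, from 3.76, 3.11 and 1.72 CPM to 0.135, 0.185 and 0.118 CPM (log2FC -4.26 ± 0.48, edgeR FDR = 4.8e-05), IRX2, from 3.16, 3.17 and 1.47 CPM to 0.439, 0.592 and 0.945 CPM, and the somite factor MEOX2 (log2FC -0.95 ± 0.16).

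Skeletal muscle genes were lower at E6.5 almost throughout: of 35 tested, none rose and 20 fell (57.1%, against 3.45% of all genes), with a median log2FC of -1.20. The summed CPM of the list was 231, 318 and 227 at E5.5 and 143, 139 and 122 at E6.5. The part of surrounding muscle in the dissected tissue was not tested, and E5.5 library 2 was the highest of all. MYH1D, a fast skeletal myosin, went from 9.34, 25.4 and 9.65 CPM to 1.55, 1.41 and 0.669 CPM (log2FC -3.60 ± 0.52, edgeR FDR = 2.8e-04), or -2.92 without E5.5 library 2, but chicken fast myosin genes are near-identical copies side by side, so counts may be shared among them. ACTC1, cardiac actin, which is also made in embryonic skeletal muscle, went from 26.1, 48.8 and 24.6 CPM to 8.17, 5.84 and 2.32 CPM (log2FC -2.59 ± 0.38, edgeR FDR = 2.9e-04). MYOG and MYOD1, which drive muscle differentiation, fell from 2.29, 3.504 and 2.05 CPM and from 2.93, 2.05 and 1.79 CPM to at most 0.78 CPM in any E6.5 library (log2FC -2.39 ± 0.32 and -2.17 ± 0.35). MYF5, another of these factors, had 31, 46 and 15 counts at E5.5 and 2, 2 and 0 counts at E6.5, a ratio of 21.1 (exact 95% interval 7.96 to 79.0, counting error only). MYL10, a myosin light chain, and RYR3, a calcium release channel, fell by log2FC of -2.27 ± 0.33 and -1.15 ± 0.10. Without E5.5 library 2, 17 of the genes fell and the median was -0.81, and with at least 10 counts in every library 11 fell.

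Sclerotome and cartilage markers split: 3 of 23 rose and 8 fell, while their summed CPM was 929, 1017 and 906 at E5.5 and 1046, 1060 and 1112 at E6.5. Whether their RNA came from tissue beside the mesonephros or from the duct itself was not tested. The falls numbered 5 with all 12 libraries fitted, 5 with at least 10 counts in every library and 6 without E5.5 library 2. PAX1 and PAX9, with the values above, are among the 8 falls. So are NKX3-2, a homeobox factor of cartilage (log2FC -2.19), which lost its call without E5.5 library 1 (-1.75), E5.5 library 2 (-2.20), E6.5 library 1 (-2.45), E6.5 library 2 (-1.9) or E6.5 library 3 (-2.29), by limma voom (-2.06) and with all 12 libraries fitted (-2.20), and SOX5 (log2FC -0.61) and SOX6 (log2FC -0.89), partners of SOX9 in cartilage. SOX5 lost its call without E5.5 library 2 (-0.45) or E6.5 library 2 (-0.53), with all 12 libraries fitted (-0.62) and with the gene length trend removed (-0.32), and SOX6 with all 12 libraries fitted (-0.90). CNMD, chondromodulin, an angiogenesis inhibitor of cartilage, fell from 44.5, 39.6 and 27.8 CPM to 20.5, 19.3 and 19.1 CPM (log2FC -0.92 ± 0.15, edgeR FDR = 7.3e-04), and MATN1, a cartilage matrilin, fell by a log2FC of -0.89 ± 0.20. The rises were of TNMD, tenomodulin of tendon, from 0.542, 1.02 and 1.11 CPM to 3.72, 3.44 and 2.56 CPM (log2FC 1.87 ± 0.25, edgeR FDR = 1.4e-04), COL9A2, from 10.01, 10.02 and 10.9 CPM to 19.9, 21.4 and 20.8 CPM (log2FC 1.01 ± 0.22, edgeR FDR = 0.0038), and UNCX. C1QTNF3, a secreted C1q and TNF related protein first known from cartilage, fell from 14.02, 23.3 and 9.62 CPM to 0.811, 1.998 and 0.551 CPM (log2FC -3.81 ± 0.52, edgeR FDR = 1.7e-04), or a log2FC of -4.50 without E6.5 library 2.

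**Figure D4:**
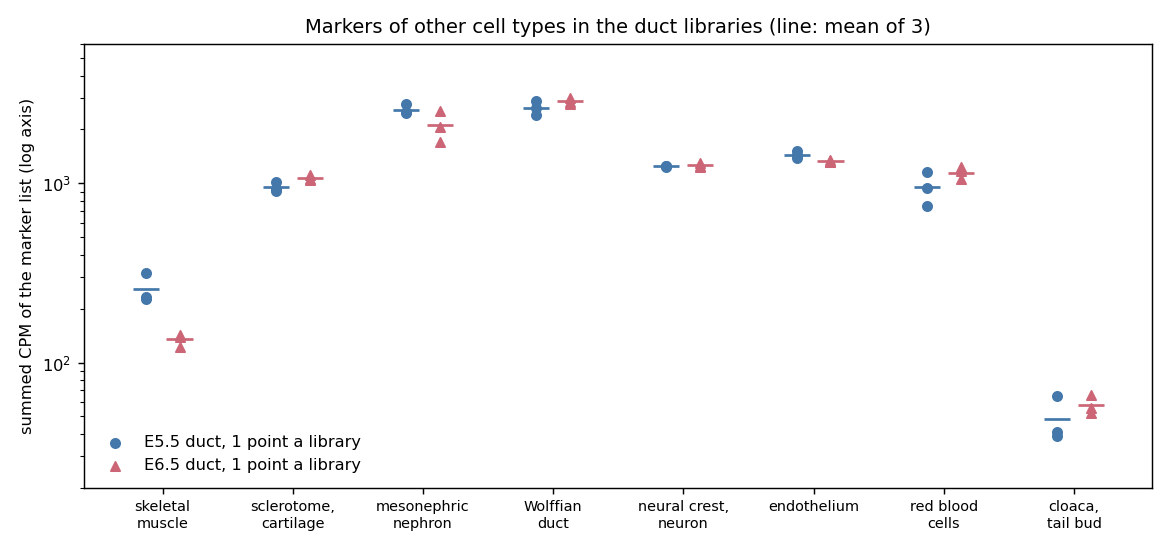
Summed CPM (log axis) of marker lists of other cell types in each E5.5 (circles) and E6.5 (triangles) duct library, with a line at the mean of 3. The skeletal muscle sum is lower in every E6.5 library, from 227 to 318 CPM at E5.5 to 122 to 143 CPM at E6.5, the nephron sums overlap, and the cloaca sum is highest in 1 E5.5 library and 1 E6.5 library.

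Markers of the mesonephros, on which the duct lies, were lower in part. Of 27 nephron genes 6 fell and 1 rose (22.2% and 3.70%, against 3.45% and 4.11% of all genes), with a median log2FC of -0.35. The list summed to 2767, 2490 and 2471 CPM at E5.5 and 1701, 2076 and 2539 CPM at E6.5. PTPRO, a phosphatase of podocytes, fell from 49.1, 36.8 and 31.8 CPM to 11.3, 15.9 and 18.04 CPM (log2FC -1.38 ± 0.18, edgeR FDR = 1.1e-04). SLC12A1, a salt transporter of distal segments, fell from 91.5, 89.6 and 71.7 CPM to 27.4, 30.4 and 34.9 CPM (log2FC -1.45 ± 0.17, edgeR FDR = 5.5e-05). E6.5 library 1 was the lowest of its stage for both genes, and libraries of the stages did not overlap. SLC5A1, a glucose transporter, fell (log2FC -0.83 ± 0.13). LRP2, an endocytic receptor of the proximal tubule, fell (log2FC -0.71) but its call was lost without E6.5 library 1 (-0.58) and with the gene length trend removed (-0.57), and HNF4A, a factor of the same segment (log2FC -0.60), lost its call without E5.5 library 1 (-0.50) or E6.5 library 1 (-0.42), with all 12 libraries fitted (-0.60) and with the gene length trend removed (-0.54). SLC34A1, the proximal phosphate transporter, went the other way, from 46.5, 49.8 and 51.4 CPM to 53.9, 88.5 and 114 CPM (log2FC 0.80 ± 0.20, edgeR FDR = 0.010), and its call was lost without E6.5 library 3 (0.53) and with all 12 libraries fitted (0.79).

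Wolffian duct genes were present at both stages, and several of them, such as PAX2 and LHX1, are also genes of the Müllerian duct. The list summed to 2407, 2634 and 2868 CPM at E5.5 and to 2982, 2857 and 2762 CPM at E6.5, and 2 of its 14 tested members fell (14.3%, against 3.45% of all genes). These were RET, with the values above, and SIM1, a bHLH-PAS factor of that duct, from 77.7, 86.2 and 69.7 CPM to 47.4, 43.2 and 39.9 CPM (log2FC -0.84 ± 0.09, edgeR FDR = 4.8e-05). Of 28 neural markers 3 rose and 2 fell (10.7% and 7.14%, against 4.11% and 3.45% of all genes), with 1 rise without E6.5 library 2 or with all 12 libraries fitted. The rises included CHGA, chromogranin A, from 27.7, 25.3 and 19.9 CPM to 39.99, 46.8 and 43.6 CPM (log2FC 0.84 ± 0.11, edgeR FDR = 1.4e-04). The falls were of STMN2 (log2FC -1.02 ± 0.13) and SNAP25 (log2FC -0.79 ± 0.14). Of 25 endothelial markers 1 rose and 2 fell (4% and 8%). PROX1, a factor of lymphatic endothelium and other tissues, fell from 14.8, 14.5 and 11.8 CPM to 6.79, 5.51 and 6.14 CPM (log2FC -1.15 ± 0.12, edgeR FDR = 2.4e-05). FLI1 and ENG also passed in opposite directions (log2FC -0.61 and 0.59). The call of FLI1 was lost without E5.5 library 1 (-0.58) or E5.5 library 2 (-0.53) and with the gene length trend removed (-0.48) and that of ENG without E5.5 library 3 (0.55), E6.5 library 2 (0.58) or E6.5 library 3 (0.55) and with the gene length trend removed (0.51).

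Globin genes changed from one set to another, while their summed level overlapped between the stages. Red blood cells carry these mRNAs, and in the chick embryo primitive cells with embryonic globins give way to definitive cells. Where in the dissected tissue these reads came from, and by what change of cells, was not tested. The 7 globin genes summed to 1319, 795 and 989.7 CPM at E5.5 and 1089, 1145 and 1005 CPM at E6.5. Within the alpha-type genes, the share of HBZ, an embryonic gene, was 55.4, 50.1 and 45.1% at E5.5 and 9.8, 8.35 and 11.5% at E6.5, and that of HBA1 29.98, 32.8 and 35.3% and 59.4, 59.7 and 59.8%. Within the beta-type genes, HBBA, the adult gene, went from 1.63, 8.103 and 11.8% to 57.2, 58.4 and 50.1%, and HBBR, an embryonic gene, from 64.2, 60.2 and 56.1% to 20.7, 20.8 and 25.3%. No share overlapped between the stages.

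E5.5 library 1 had the most embryonic and E5.5 library 3 the least embryonic mix of its stage in both groups. In CPM, HBBA rose 10.2-fold, from 8.19, 24.99 and 45.04 to 278, 293 and 221 CPM (log2FC 3.36 ± 0.35, edgeR FDR = 2.9e-05, or log2FC 3.98 without E5.5 library 3), and HBE1 from 3.03, 3.57 and 6.496 to 41.2, 43.9 and 35.7 CPM (log2FC 3.22 ± 0.22, edgeR FDR = 1.5e-06). HBZ fell 5.42-fold, from 452, 244 and 274 to 59.2, 53.7 and 64.97 CPM (log2FC -2.44 ± 0.18, edgeR FDR = 2.2e-06). HBBR and HBE fell by log2FC of -1.18 ± 0.16 and -0.92 ± 0.17, and HBA1 and HBM rose by 0.81 ± 0.13 and 0.79 ± 0.13, calls that were lost with the length trend removed (log2FC 0.57 and 0.55). How reads that match several globin genes were counted is not given in the sources used here. Of the 17 tested red blood cell markers 6 rose and 2 fell (35.3% and 11.8%, against 4.11% and 3.45% of all genes). RHAG and SLC4A1, both of the red cell membrane, were among the rises (log2FC 0.92 and 0.62). This list also holds globin genes, but not all of those that fell, so its counts are not a separate measure from the globin genes above. The call of SLC4A1 was lost without E5.5 library 3 (0.52), E6.5 library 1 (0.58) or E6.5 library 2 (0.58).

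**Figure D5:**
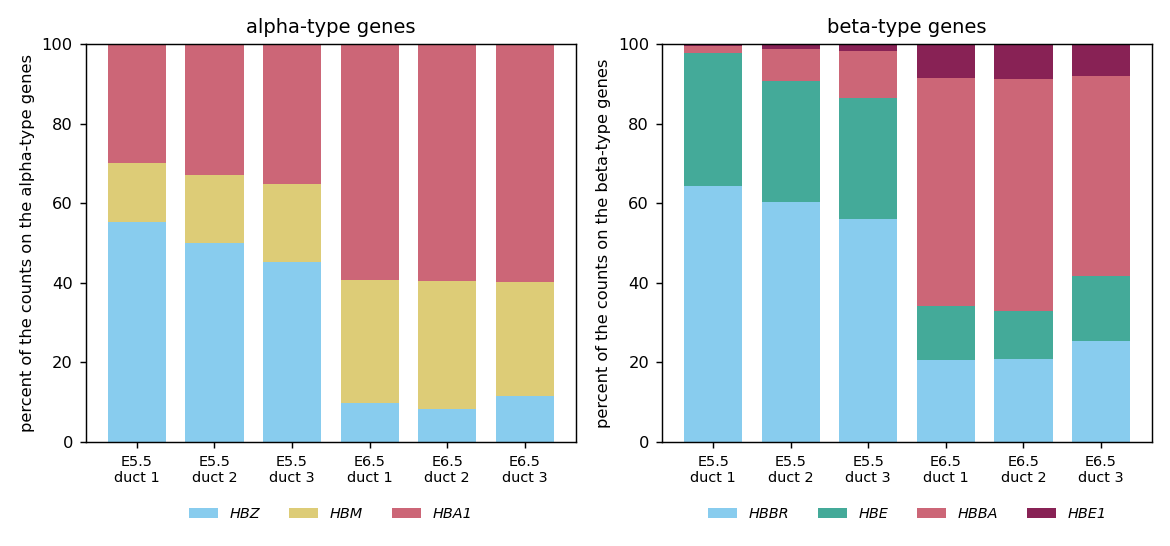
Percent of the counts on 3 alpha-type (left) and 4 beta-type (right) globin genes that fell on each gene, in every duct library. HBZ falls from between 45.1% and 55.4% of the alpha-type counts at E5.5 to between 8.35% and 11.5% at E6.5, while HBBA goes from at most 11.8% to at least 50.1% of the beta-type counts.

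Of 2151 lncRNA genes tested, 74 rose (3.44%) and 128 fell (5.95%), against 4.21% and 3.08% of protein coding genes. LOC101751432, on chromosome 1, rose from 1.27, 0.793 and 1.26 CPM to 4.02, 3.55 and 3.47 CPM (log2FC 1.74 ± 0.19, edgeR FDR = 4.6e-05), and LOC101748409, on chromosome 13, from 0.319, 0.298 and 0.538 CPM to 1.25, 1.37 and 1.22 CPM (log2FC 1.74 ± 0.38, edgeR FDR = 0.0040). The first lies 25209 bases from FHL2, which is on the other strand and did not pass. Its nearest gene past the threshold was SLC5A7, 824815 bases away, which fell. The second lies 33613 bases from FGF18, also on the other strand. LOC112529963, the only lncRNA among the 12 largest rises, measured 2.84, 3.74 and 3.16 CPM and then 10.4, 9.73 and 10.6 CPM (log2FC 1.66 ± 0.15, edgeR FDR = 9.6e-06), and its nearest tested protein coding gene is GABRG3, 94737 bases away.

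The lncRNA with the largest fall, among those with a mean of at least 1 CPM, was LOC107054724, on the strand opposite the MYH1G myosin gene (itself not past the threshold) on chromosome 18, from 1.31, 3.04 and 1.47 CPM to 0.507, 0.185 and 0.236 CPM (log2FC -2.61 ± 0.48, edgeR FDR = 0.0015). It was highest in E5.5 library 2, as was the summed CPM of the skeletal muscle list, though not every gene of that list. LOC107053942 fell from 1.47, 0.694 and 1.15 CPM to 0.0676, 0.259 and 0.394 CPM (log2FC -2.22 ± 0.44, edgeR FDR = 0.0024). LOC107054563, on chromosome 13, fell from 0.861, 1.16 and 1.18 CPM to 0.203, 0.333 and 0.197 CPM (log2FC -2.10 ± 0.37, edgeR FDR = 0.0011). The nearest gene past the threshold, which need not be the nearest gene, was PITX1, 99519 bases away, which also fell. Of the 74 lncRNA genes that rose, 12 had a nearest protein coding gene that rose (16.2%) and 3 one that fell (4.05%). Of the 128 that fell, 2 had a nearest gene that rose (1.56%) and 19 one that fell (14.8%), and of 1943 lncRNA genes with a measured neighbour and no change the shares were 2.32% and 3.96%. An lncRNA near the end of a gene on the same strand can hold reads of that gene, so these shares are descriptions.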

How the data were processed

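RNA was sequenced from pools of chicken duct or mesonephros. The authors aligned the reads with STAR and counted them per gene with featureCounts 1.6.2, over whole genes including introns, by the strand opposite the read, on the GRCg6a RefSeq annotation. The table of counts was deposited unnormalised by the authors. Treatment of multi-mapping reads is not given in the sources used here, and duplicates were kept. All columns were matched to a group by name.

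CPM were computed from these counts. Genes kept by edgeR's filter (edgeR 4.0.16, R 4.3.3) were scaled by TMM and tested by the quasi-likelihood test in 1 fit of 11 libraries and 4 tissues, with Benjamini-Hochberg adjustment. The E4.5-Ant library left out was chosen by its rRNA share. The study's own method was limma voom, tried here (limma 3.58.1) as an alternative, as were DESeq2 1.42.0, other scalings, filters and sets of libraries. Only the edgeR test was tried on simulated counts.

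The genes named were the 12 largest rises and 12 largest falls with a mean of at least 5 CPM in the higher stage and no overlap between stages, the 6 widest gaps each way, and the 3 largest lncRNA changes each way with at least 1 CPM. In each of 36 gene lists and 13 marker lists, up to 6 changed members each way were named, with every member of some short lists. Members and lists were chosen with earlier results of these data known. Gene positions are those of GRCg6a in the deposited table, and chromosome names came from gene symbols in the RefSeq table of GRCg7b. Sex of embryos was not modelled. Some genes that these rules select are not reported here.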

Additional observations from a re-analysis of the deposited data

How the results depend on the processing

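The 1256 calls became 220 (106 higher and 114 lower) when the test was made against the fold limit itself, since a gene must then exceed the limit beyond its error. Leaving out library 2 of both stages, a choice made after seeing the data, gave 758 calls (432 higher and 326 lower). Calls lost in these alternatives are not marked at the single genes above. The alternatives were followed for 282 genes, which include genes without a call, such as PAX2 and KANK1. Of those with a call, 122 lost it against the fold limit, among them DMRT1, OSR1 and COL1A2. Without library 2 of both stages 44 lost it, among them TCF7, IHH, ISL2, RHAG, MATN1, CDC6, CSRP1, TNC and LOC101748409. Leaving out single duct libraries gave 912 to 1328 calls, 490 to 749 higher and 422 to 607 lower, lowest in total without E6.5 library 2. The 202 lncRNA calls became 129 with at least 10 counts required in every library, 134 with all 12 libraries, 25 against the fold limit, 96 without both libraries 2 and 133 to 205 with single libraries left out. The cause was not tested where fewer genes or libraries do not give it. The median log2 fold change of all tested genes (0.0052) was -0.0014 by DESeq2, -0.0015 with DESeq2 size factors, -0.0038 with all 12 libraries, -0.003 without both libraries 2, -0.0102 with the gene length trend removed (also chosen after seeing the data), and -0.0005 to 0.0121 with single libraries left out. Counts by limma voom (1232), DESeq2 (1086) and the other scalings lay within 1.5 times the main count. No gene named in the text changed direction in a call. No paired analysis was possible because the labels give no replicate numbers, and the numbers in the names of the count columns only tell apart pools of different embryos. Calls near 1.5-fold changed with small shifts of log2FC across the limit, as for LEF1 (0.59, or 0.58 by DESeq2). Changes under that limit were also detected with these pools. An edgeR FDR of at most 0.05 at any fold was found for 4659 genes, of which 1256 passed the fold limit.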

Other observations

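Solute carriers, which move ions and nutrients across membranes, changed in 24 of 280 tested members, 14 up and 10 down (5% and 3.57%), near the shares of all genes (4.11% and 3.45%). Without E6.5 library 2 or without E6.5 library 3, 9 rose. Their median log2FC was -0.03. SLC6A4, the serotonin transporter, rose from 19.1, 16.2 and 27.1 CPM at E5.5 to 42.1, 43.5 and 45.4 CPM at E6.5 (log2FC 1.08 ± 0.14, edgeR FDR = 1.5e-04). SLC9A3, a sodium and proton exchanger of kidney tubules, fell from 5.07, 5.06 and 5.99 CPM to 2.36, 2.81 and 2.56 CPM (log2FC -1.05 ± 0.15, edgeR FDR = 3.0e-04).

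Of 14 gonad and steroidogenic markers 2 rose and 1 fell (14.3% and 7.14%, against 4.11% and 3.45% of all genes). NR0B1 rose with the values above and CYP17A1, an enzyme of androgen synthesis, rose from 3.41, 3.34 and 3.12 CPM to 6.08, 6.55 and 4.69 CPM (log2FC 0.81 ± 0.15, edgeR FDR = 0.0014). HSD3B1, an enzyme of progesterone synthesis, fell from 8.51, 7.64 and 8.72 CPM to 5.51, 4.07 and 4.69 CPM (log2FC -0.79 ± 0.17, edgeR FDR = 0.0033). Of 15 immediate early and heat shock genes 2 rose (13.3%), EGR1 and HSPB1, a small heat shock protein, the latter from 18.3, 17.5 and 18.7 CPM to 33.2, 39.5 and 29.6 CPM (log2FC 0.91 ± 0.10, edgeR FDR = 2.8e-05). Of 16 leukocyte markers only CSF3R rose (6.25%, log2FC 0.89 ± 0.21), near the share of all genes (4.11%). Of 22 glycolysis and hypoxia genes CA9 (log2FC 0.73 ± 0.07) and ENO2 rose (9.09%), and only CA9 did with all 12 libraries fitted. None of 20 cholesterol synthesis genes passed by edgeR, limma voom or DESeq2. Among them, 6 had an unadjusted edgeR p under 0.05. An edgeR FDR of at most 0.05 at any fold was found for 4, against 4659 of all 16603 tested genes.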
